A study of Mus musculus with 16 samples.

Results

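Collagen chain genes encode the alpha chains of the collagens, the main structural proteins of the extracellular matrix. They were taken as every row whose symbol is Col, a number, the letter a and a number. The table held 43 such genes among 37310 rows. RNA was sequenced from F4/80+ cells, sorted as adipose tissue macrophages (ATMs) from the epididymal fat pads of 16 male mice that were young adults when the diet began. IRF5-KO mice carried Irf5 flox/flox and LysM-Cre, a Cre inserted at the Lyz2 locus and active in myeloid cells, which include neutrophils and monocytes besides macrophages. WT mice served as controls, and whether they carried the floxed allele without Cre is not given in the sources used here. All mice were on a high-fat diet (HFD), for 4 weeks (ST-HFD) or 12 weeks (LT-HFD), with 4 mice of each genotype at each duration. No group without HFD was analysed here.

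In every collagen, alpha chains wind around each other into a triple helix, either as copies of a single gene product or as a mixture. Fibrillar collagens (types I, III, V and XI) form the cross-banded fibres of connective tissue, type IV builds the sheet of basement membranes, and type VI forms beaded filaments around cells. In adipose tissue, type VI collagen surrounds adipocytes and type IV lies in their basement membrane, and fibroblasts and preadipocytes are the best known producers of fibrillar and type VI chains. Macrophages are better known for taking up and degrading collagen.

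Values are counts scaled to library size (CPM) after TMM normalization over the 16 libraries, and levels of different genes are compared only as CPM per kilobase of exon. Total counts per library ranged from 3279332 to 4958131. The 3 features with the most counts took 18.6% to 24.1% of each ST-HFD library and 26.1% to 34.5% of each LT-HFD library. Irf5 counts did not fall in IRF5-KO libraries, with a log2 fold change of 0.13 ± 0.09 (SE) on ST-HFD and 0.24 ± 0.12 on LT-HFD. A count over the whole gene does not separate deleted exons from retained ones. Lyz2, whose locus carries the Cre, gave log2 fold changes of -0.97 and -1.04. A plot in the study shows Irf5 values under the opposite durations to those in the labels, as judged by eye, so every direction below follows the labels of the libraries. By these labels Irf5 was lower on LT-HFD, by -0.30 in WT and -0.19 in IRF5-KO on the log2 scale (edgeR, adjusted p = 0.0485 and 0.181). Were the labels exchanged, every direction between durations below would turn. Preparation dates are not given in the sources used here, so diet duration and the batch of collection cannot be told apart. Summed macrophage markers were lower on LT-HFD without overlap within each genotype, at 11243 to 11596 CPM (ST-HFD) and 8336 to 10488 CPM (LT-HFD) in WT and at 9107 to 10345 and 6653 to 7193 CPM in IRF5-KO. Summed fibroblast and preadipocyte markers stood at 826 to 1701 CPM (ST-HFD) and 3630.0 to 14269 CPM (LT-HFD). WT LT-HFD replicate 4 stood apart from the other libraries of its group, with the highest sum of collagen chains and of fibroblast markers in the whole series. Values without it are given beside the results it moves.

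Several collagen chain genes lie beside a partner of the same type. On GRCm38, Col4a1 (chr8:11198423-11312826, minus strand) and Col4a2 (chr8:11312805-11449287, plus strand) started head to head, with their first exons overlapping by 22 bases. These bases, on the plus strand at chr8:11312805-11312826, are shown because both chains of the main basement membrane collagen start there.
Col4a1 and Col4a2 overlap: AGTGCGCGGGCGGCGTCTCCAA
Col4a4 and Col4a3 were likewise head to head, 71 bp apart, as were Col4a6 and Col4a5 on chromosome X, 1308 bp apart. Col6a2 (chr10:76595762-76623630) and Col6a1 (chr10:76708792-76726168) ran in the same direction on the minus strand with 85161 bp between them. Col3a1 (chr1:45311538-45349706, plus strand) and Col5a2 (chr1:45374321-45503282, minus strand) faced each other tail to tail across 24614 bp. Col1a1 (chr11:94936224-94953042, plus strand) and Col1a2 (chr6:4504814-4541544, plus strand) form 1 protein but lie on different chromosomes.

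The 250 bases before the RefSeq start sites of Col1a2 and Col3a1 (GRCm38.p6) are shown because these chains gave the most fibrillar collagen counts and their ratios to Col1a1 are described below. The window of Col1a2 lay at chr6:4505368-4505617 and that of Col3a1 at chr1:45311288-45311537, both on the plus strand. The Col1a2 window lies inside the gene bounds given above, which begin at chr6:4504814, before the RefSeq start. Capitals mark 3 short promoter motifs searched on both strands, the CCAAT box, the TATAAA form of the TATA box and the GGGCGG form of the GC box.
Col1a2: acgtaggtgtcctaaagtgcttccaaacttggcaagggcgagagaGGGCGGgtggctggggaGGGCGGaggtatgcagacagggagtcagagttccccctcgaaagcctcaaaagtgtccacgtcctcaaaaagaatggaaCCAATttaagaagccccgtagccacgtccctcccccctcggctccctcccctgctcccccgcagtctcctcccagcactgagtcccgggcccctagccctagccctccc
Col3a1: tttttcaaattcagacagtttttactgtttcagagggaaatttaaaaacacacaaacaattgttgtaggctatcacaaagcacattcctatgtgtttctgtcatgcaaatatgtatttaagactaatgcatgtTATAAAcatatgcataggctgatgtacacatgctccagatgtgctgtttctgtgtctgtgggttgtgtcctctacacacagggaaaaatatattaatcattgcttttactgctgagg
The Col1a2 window held CCAAT once, its first base at position -109 from the start, and GGGCGG at 2 places. The Col3a1 window held TATAAA once, at position -117, and neither of the others. Among 27025 RefSeq promoter windows of that length, CCAAT was found in 34.5%, TATAAA in 13.0% and GGGCGG in 32.9%. Of the 43 collagen chain genes, 35 had a promoter in the RefSeq table.

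The 8 chains with the highest level per kilobase took 80.0% to 88.6% of the family's normalized counts in a library. Per kilobase, Col3a1 (type III, which forms thin fibres with type I) had the highest mean level over the 16 libraries, at 122 CPM per kb. Col1a1 followed at 51.5, Col1a2 at 44.7, Col6a1 at 39.1, Col6a2 at 23.3, Col4a1 at 22.1, Col4a2 at 14.2 and Col6a3 at 11.5 CPM per kb. The 2 type I chains combine in 1 molecule. In WT ST-HFD libraries Col1a1 stood at 31.1 and Col1a2 at 13.3 CPM per kb, and in WT LT-HFD libraries at 63.1 and 67.4, or at 49.6 and 47.9 without replicate 4. Lengths were the union of all annotated exons of a gene, such as 6.56 kb for Col1a1 and 12.4 kb for Col1a2. They were 4.38 kb for Col6a1 and 8.33 kb for Col6a2. The ranking, and the level of 1 chain relative to another, depend on that choice of length. At the other end, 19 of the 43 genes passed the count filter in no comparison, none of these had more than 21 counts in any library, and Col9a2 had no count in any library. They include the cartilage chains Col2a1, Col9a1, Col9a2 and Col11a1, and Col10a1 of hypertrophic cartilage. Collagen chains took at most 0.775% of the normalized counts of a library, with sums of 1551 to 1751 CPM (WT) and 1121 to 2405 CPM (IRF5-KO) on ST-HFD. The LT-HFD sums were 3137 to 7748 CPM (WT) and 3807 to 7542 CPM (IRF5-KO).

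**Figure D1:**
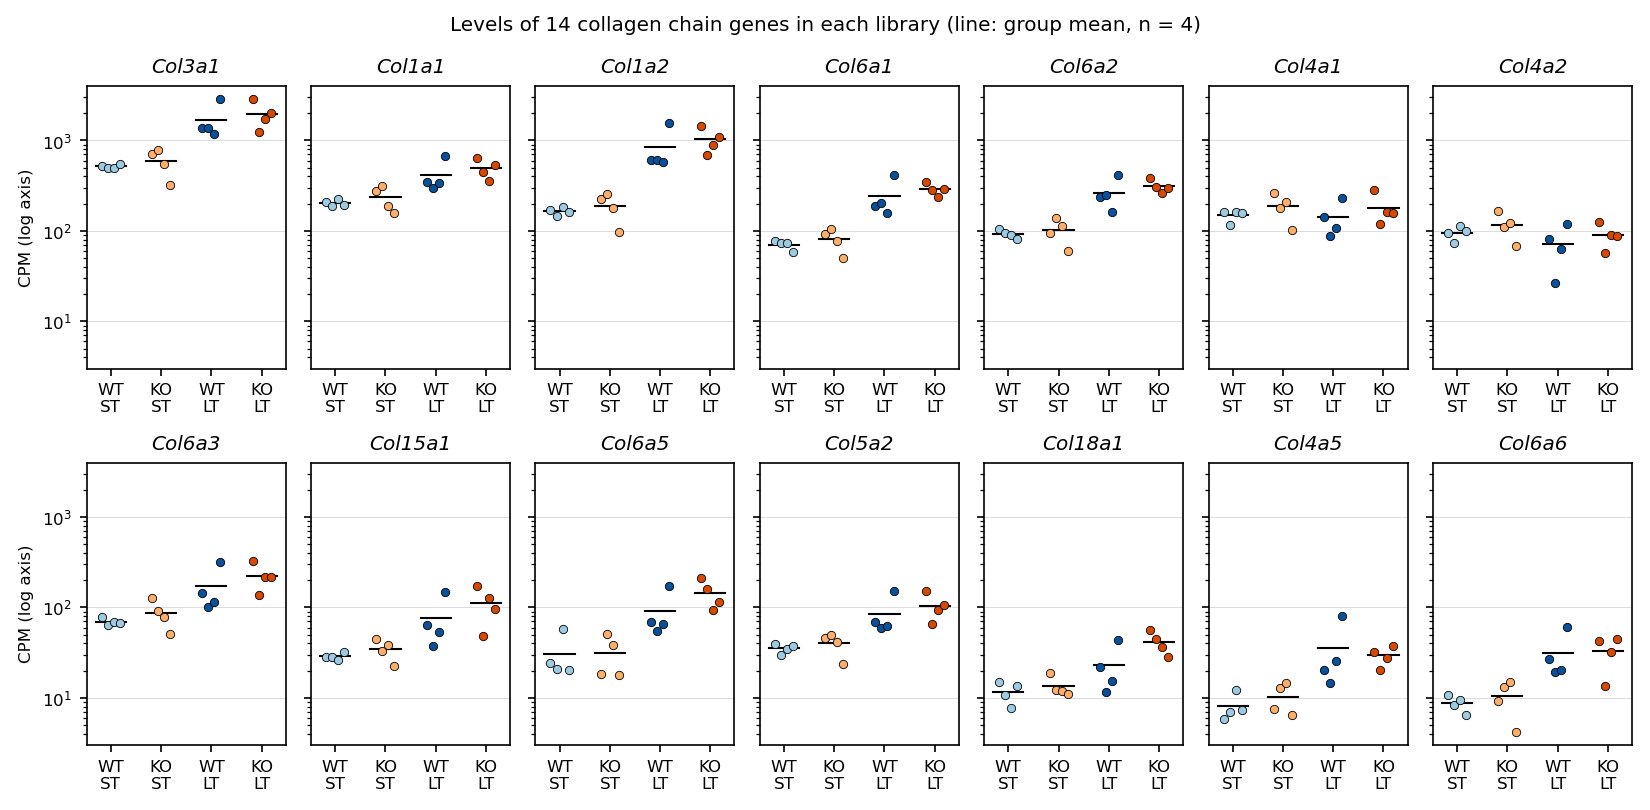
CPM (log axis) of 14 collagen chain genes in each of the 16 libraries, with points for mice ordered by replicate number, a line at the group mean (n = 4), KO for IRF5-KO, ST for ST-HFD and LT for LT-HFD. Col3a1 lies between 323 and 792 CPM in the ST-HFD libraries and between 1172 and 2884 in the LT-HFD libraries, whereas the durations overlap for Col4a1 and Col4a2.

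Collagen chain levels were first compared between diet durations, within each genotype and over different mice. Of the 23 chain genes tested, 14 were higher on LT-HFD than on ST-HFD in WT libraries at an adjusted p under 0.05 and none were lower, against 12.1% of all tested genes higher and 13.2% lower. In IRF5-KO libraries 13 of 23 were higher and none lower, against 15.6% and 17.2% of all tested genes. None were lower at an unadjusted p under 0.05 either, in edgeR's quasi-likelihood test, against 18% of all tested genes in WT and 21.6% in IRF5-KO. DESeq2's Wald test called 15 chain genes in WT and 14 in IRF5-KO. The median log2 fold change over the 23 genes was 1.29 in WT and 1.31 in IRF5-KO, and over all 11560 tested genes 0.02 and 0.04. In each genotype, 12 of the 23 had all LT-HFD libraries above all ST-HFD libraries, against 12.3% of all tested genes in WT and 14.3% in IRF5-KO. The WT calls and these 12 include Col4a6, which passed the count filter within LT-HFD but not within ST-HFD. Without WT LT-HFD replicate 4, the calls in WT numbered 9, against 8.23% of all tested genes higher, and Col4a6, Col5a3, Col6a5, Col15a1 and Col18a1 lost theirs. In that fit Col16a1 and Col4a2 were lower at an unadjusted p under 0.05 (adjusted p = 0.0745 and 0.157), against 15.8% of all tested genes. The median log2 fold change over the 23 genes was then 0.81, and Col1a1, Col5a2 and Col6a3 stood at 0.69, 0.86 and 0.81 (adjusted p = 0.0306, 0.0212 and 0.0415).

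**Figure D2:**
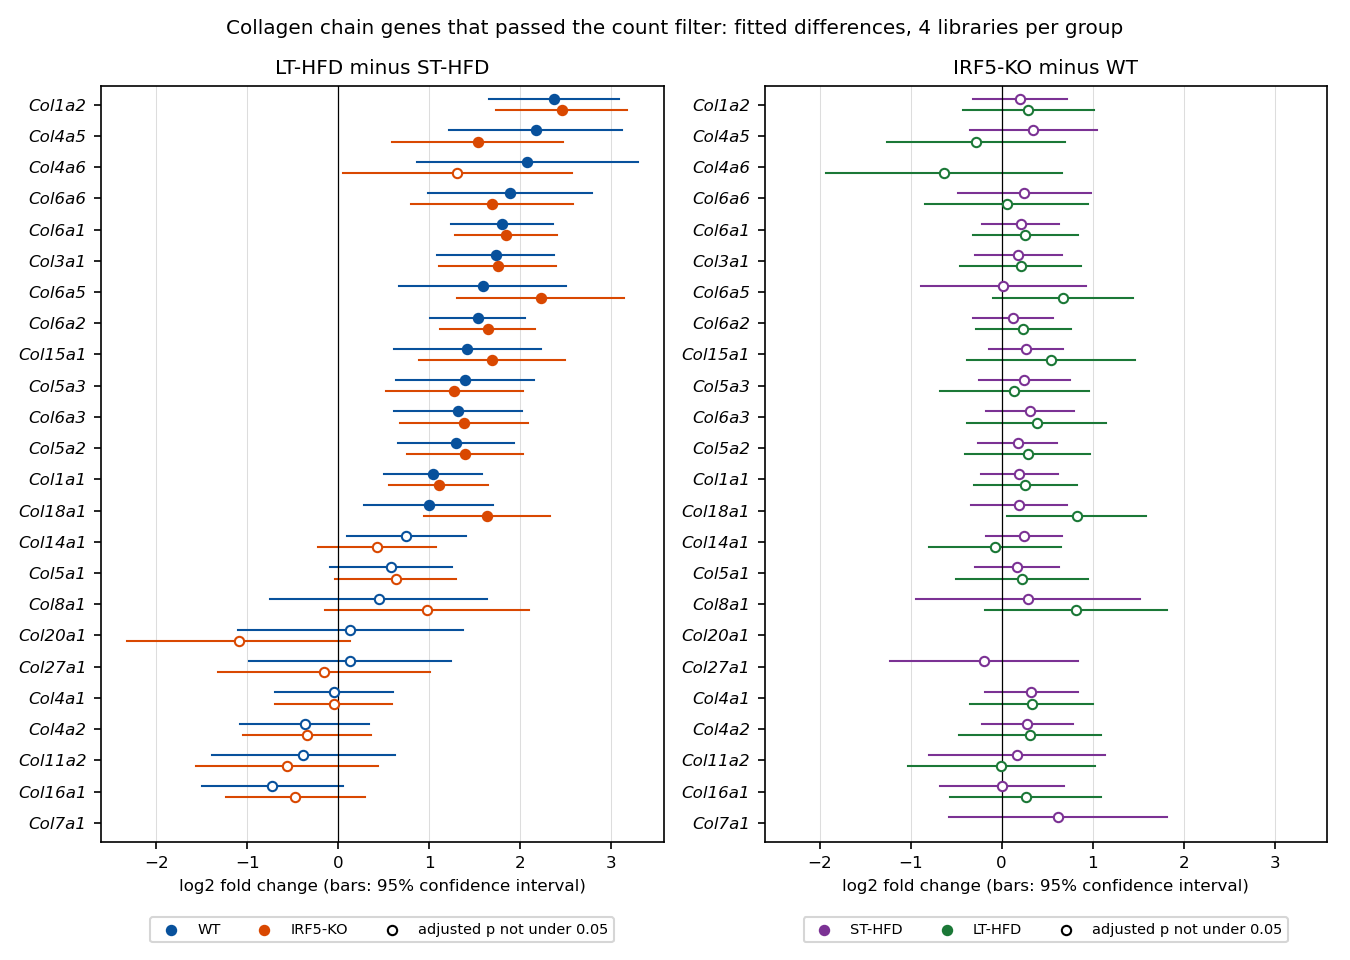
Fitted log2 fold changes with 95% confidence intervals for the chain genes that passed the count filter, LT-HFD minus ST-HFD on the left (WT in blue, IRF5-KO in orange) and IRF5-KO minus WT on the right (ST-HFD in purple, LT-HFD in green), with filled points for an adjusted p under 0.05. Of the 23 genes on the left, 14 in WT and 13 in IRF5-KO have filled points above 0, and no point on the right is filled.

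Among the fibrillar chains, 5 of the 8 tested were higher on LT-HFD in WT and 5 in IRF5-KO, with medians of 1.17 and 1.19 on the log2 scale. Col3a1 was measured at 526, 491, 500.5 and 555 CPM in WT ST-HFD replicates 1 to 4 and at 1378, 1379, 1172 and 2855 CPM in WT LT-HFD. Its IRF5-KO libraries held 705, 792, 544 and 323 CPM on ST-HFD and 2884, 1227, 1742 and 2012 CPM on LT-HFD. Every LT-HFD library lay above every ST-HFD library, with the highest values in WT replicate 4 and IRF5-KO replicate 1. The log2 fold change was 1.73 ± 0.31 (SE, adjusted p = 4.20e-04, edgeR) in WT and 1.75 ± 0.31 (adjusted p = 3.06e-04) in IRF5-KO. Exons of Col3a1 overlap those of Gm47302 on the same strand, so reads shared by both could be counted for either.

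Col1a2, the second type I chain, showed a larger fold. It stood at 169, 146, 183 and 161 CPM in WT ST-HFD and at 601, 605, 581 and 1562 CPM in WT LT-HFD. In IRF5-KO it stood at 226, 259, 179 and 97.9 CPM on ST-HFD and 1453, 687, 896 and 1088 CPM on LT-HFD. The durations did not overlap in either genotype, and Col1a2 had the smallest p of the family in both, with 2.37 ± 0.34 (fold 5.16, adjusted p = 6.89e-05) in WT and 2.46 ± 0.34 (fold 5.48, adjusted p = 3.59e-05) in IRF5-KO. Col1a1, which supplies the other chain of the same molecule, was at 207, 189, 228 and 194 CPM in WT ST-HFD and 345, 295, 336 and 680.0 CPM in WT LT-HFD. Its IRF5-KO values were 276, 315, 189.9 and 156 CPM on ST-HFD and 646, 449, 359 and 541 CPM on LT-HFD. Here too the durations stood apart within each genotype, by a smaller margin, with 1.04 ± 0.26 (fold 2.06, adjusted p = 0.00620) in WT and 1.11 ± 0.26 (fold 2.15, adjusted p = 0.00327) in IRF5-KO.

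The type V chains, which sit inside type I fibrils and set their width, did not all pass the test. Col5a2 was at 29.6 to 39.8 CPM in WT ST-HFD and 59.6 to 150.3 CPM in WT LT-HFD, and in IRF5-KO at 23.6 to 49.0 and 66.1 to 153 CPM. It rose by 1.29 ± 0.30 in WT (adjusted p = 0.00423) and 1.40 ± 0.30 in IRF5-KO (adjusted p = 0.00185). Col5a3 rose by 1.39 ± 0.36 and 1.28 ± 0.36 (adjusted p = 0.00838 and 0.0109), and without WT LT-HFD replicate 4 the WT value was 0.89 (adjusted p = 0.0511). Col5a1, the chain present in most type V molecules, gave 0.58 in WT (95% interval -0.09 to 1.25) and 0.63 in IRF5-KO (-0.03 to 1.30), with adjusted p = 0.202 and 0.135, and its WT value was 0.13 when WT LT-HFD replicate 4 was left out. Col11a2 and Col27a1, at no more than 7.42 and 5.52 CPM in any library, gave intervals that spanned 0 in both genotypes.

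All 5 of the type VI chains tested rose in both genotypes, with medians of 1.59 in WT and 1.69 in IRF5-KO on the log2 scale. Type VI molecules combine Col6a1 and Col6a2 with Col6a3, or with Col6a5 or Col6a6 in its place. Col6a1 was at 78.1, 72.9, 73.4 and 58.1 CPM in WT ST-HFD and 189, 202, 159.5 and 418 CPM in WT LT-HFD. In IRF5-KO it was at 92.1, 106, 78.1 and 50.7 CPM on ST-HFD and 349, 284, 237 and 294 CPM on LT-HFD. The lowest LT-HFD library of either genotype was above the highest ST-HFD library, with folds of 3.48 in WT (adjusted p = 9.28e-05) and 3.60 in IRF5-KO (adjusted p = 5.02e-05). Col6a2 gave folds of 2.89 and 3.12, from 82.2 to 104 CPM on ST-HFD to 162 to 412 CPM on LT-HFD in WT, and from 60.7 to 139 to 264 to 388 CPM in IRF5-KO.

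Col6a3, the longest type VI chain, was at 63.8 to 78.7 CPM in WT ST-HFD and 102 to 320.2 CPM in WT LT-HFD, and at 51.1 to 128 and 138 to 323 CPM in IRF5-KO. It rose by 1.32 ± 0.33 in WT and 1.38 ± 0.33 in IRF5-KO (adjusted p = 0.00742 and 0.00408). Col6a5 read 24.3, 21.05, 57.8 and 20.4 CPM in WT ST-HFD and 69.8, 54.5, 66.3 and 171 CPM in WT LT-HFD, so 1 ST-HFD library overlapped the LT-HFD range. It rose by 1.59 ± 0.43 in WT (adjusted p = 0.0119), and without WT LT-HFD replicate 4 the value was 1.07 (adjusted p = 0.0701). In IRF5-KO, Col6a5 read 18.2, 51.3, 38.5 and 17.7 CPM on ST-HFD and 211, 161, 92.7 and 115 CPM on LT-HFD, a rise of 2.23 ± 0.44 (adjusted p = 8.69e-04). Col6a6 rose by 1.89 ± 0.43 and 1.69 ± 0.42 (adjusted p = 0.00336 and 0.00548), and an IRF5-KO LT-HFD library at 13.4 CPM overlapped the ST-HFD range of 4.18 to 15.1 CPM.

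The basement membrane chains split. Col4a1 and Col4a2, which form the type IV network of most tissues, did not pass the test. Col4a1 was at 160.0, 117, 161 and 159.7 CPM in WT ST-HFD and 141, 86.9, 109 and 231 CPM in WT LT-HFD. In IRF5-KO it was at 264, 178, 209.8 and 101 CPM on ST-HFD and 280.2, 118, 162 and 159 CPM on LT-HFD. The durations overlapped in both genotypes. Its log2 fold change was -0.05 in WT (95% interval -0.70 to 0.60) and -0.05 in IRF5-KO (-0.69 to 0.60), values whose sign turned to above 0 with upper-quartile normalization and with each of the GC and length corrections. The upper ends of these intervals lie below the estimates for Col1a1, Col1a2, Col3a1 and all 5 type VI chains. The difference between genes was not tested. Col4a2 was at 94.7, 74.2, 114 and 99.2 CPM in WT ST-HFD and 82.1, 26.5, 62.9 and 118 CPM in WT LT-HFD. Its IRF5-KO values were 168, 109.7, 121 and 67.9 CPM and 126, 56.8, 91.3 and 88.3 CPM, and the log2 fold changes were -0.37 (-1.08 to 0.34) in WT and -0.34 (-1.04 to 0.36) in IRF5-KO. Leaving out WT LT-HFD replicate 4 took the WT value of Col4a2 to -0.71 (adjusted p = 0.157), and over all single libraries left out it ranged from -0.71 to -0.10. Exons of Col4a1 and Col4a2 overlap on opposite strands, and the strand setting of the counting is not given in the sources used here.

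The pair on chromosome X, which forms the type IV network of epithelial and smooth muscle basement membranes, was measured at lower levels. Col4a5 read 5.92, 6.94, 12.4 and 7.26 CPM in WT ST-HFD and 20.4, 14.5, 25.9 and 81.1 CPM in WT LT-HFD. In IRF5-KO it read 7.49, 12.8, 14.6 and 6.39 CPM on ST-HFD and 32.4, 20.6, 27.6 and 37.4 CPM on LT-HFD. The durations did not overlap, and Col4a5 rose by 2.17 ± 0.45 in WT (adjusted p = 0.00175) and 1.53 ± 0.45 in IRF5-KO (adjusted p = 0.0139). Without WT LT-HFD replicate 4 the WT value was 1.36 (adjusted p = 0.00587). Its neighbour Col4a6 rose in WT by 2.08 ± 0.58 (adjusted p = 0.0132), from 0.463 to 1.91 CPM to 2.41 to 12.6 CPM, and gave 1.31 ± 0.60 in IRF5-KO (adjusted p = 0.103). Its WT value was 1.11 without WT LT-HFD replicate 4 (adjusted p = 0.133). Col4a6 passed the count filter among the LT-HFD libraries but not among the ST-HFD libraries. Its place in the duration test therefore rested on the libraries where it was high.

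The multiplexins Col15a1 and Col18a1 encode basement membrane collagens that carry glycosaminoglycan chains and release endostatin-type fragments. Col15a1 was at 28.2, 28.0, 26.5 and 32.3 CPM in WT ST-HFD and 63.3, 37.9, 52.9 and 148 CPM in WT LT-HFD, and rose by 1.42 ± 0.38 (adjusted p = 0.0112). Its IRF5-KO values of 45.3, 33.1, 38.0 and 22.4 CPM on ST-HFD and 171, 48.3, 128 and 95.3 CPM on LT-HFD gave a rise of 1.69 ± 0.38 (adjusted p = 0.00256). Without WT LT-HFD replicate 4 the WT value was 0.86 (adjusted p = 0.0717). Col18a1 read 15.0, 10.6, 7.82 and 13.6 CPM in WT ST-HFD and 22.0, 11.7, 15.3 and 43.3 CPM in WT LT-HFD, ranges that overlapped. It passed the test in WT at 0.998 ± 0.34 (adjusted p = 0.0373) and lost the call when WT ST-HFD replicate 2, 3 or 4 or WT LT-HFD replicate 1 or 4 was left out, with adjusted p = 0.0829, 0.104, 0.0529, 0.0555 and 0.250 in that order. In IRF5-KO the 4 LT-HFD libraries, at 55.9, 45.2, 36.1 and 28.6 CPM, were above the ST-HFD libraries at 18.6, 12.3, 11.8 and 11.1 CPM, a rise of 1.63 ± 0.33 (adjusted p = 0.00108).

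None of the 3 fibril-associated chains tested passed. These chains decorate the surface of fibrils. Col14a1 gave 0.75 in WT (95% interval 0.10 to 1.40, adjusted p = 0.0883, or 0.28 with adjusted p = 0.499 when WT LT-HFD replicate 4 was left out) and 0.42 in IRF5-KO (-0.23 to 1.07, adjusted p = 0.312). Col16a1 gave -0.72 in WT (-1.50 to 0.05) and -0.47 in IRF5-KO (-1.23 to 0.29), with WT libraries at 5.73 to 13.9 CPM (ST-HFD) and 3.45 to 9.36 CPM (LT-HFD), and its WT value was -1.05 (adjusted p = 0.0745) without WT LT-HFD replicate 4. Col20a1 and the short-chain network gene Col8a1 had intervals that spanned 0 in both genotypes.

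Partner chains were next set against each other within a library, which leaves normalization between libraries out of the value. Col1a2 counts were 0.774 to 0.830 times those of Col1a1 in the 4 WT ST-HFD libraries and 0.627 to 0.941 times in IRF5-KO ST-HFD. On LT-HFD the ratio was 1.73 to 2.30 in WT and 1.53 to 2.49 in IRF5-KO, so no LT-HFD library fell to the ST-HFD range. The mean log2 ratio was higher on LT-HFD by 1.27 in WT and 1.36 in IRF5-KO, and by 1.31 over both genotypes. An exact two-sided permutation of durations within genotype gave p = 4.08e-04, the smallest it can give, and 8.16e-04 after adjustment over 4 ratios. Col3a1 over Col1a1 was higher on LT-HFD by 0.66 on the log2 scale (exact permutation p = 8.16e-04, adjusted 0.00109). This ratio was 2.07 to 2.87 over the ST-HFD libraries and 2.73 to 4.85 over the LT-HFD libraries, ranges that overlapped. Within IRF5-KO the ranges overlapped too, and that genotype alone gave an exact permutation p = 0.0571, against 0.0286 in WT. Col4a2 over Col4a1 differed by -0.35 on the log2 scale (exact permutation p = 4.08e-04, adjusted 8.16e-04), from 0.577 to 0.708 on ST-HFD to 0.306 to 0.581 on LT-HFD. Col6a2 over Col6a1 differed by -0.22 (exact permutation p = 0.0127, adjusted 0.0127), and its ranges overlapped. These tests were added after the counts had been seen. Transcript GC content was 58.9% for Col1a1, 55.7% for Col1a2 and 52.5% for Col3a1, and whether it or the share taken by the top 3 features has a part in the ratios was not tested.

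**Figure D3:**
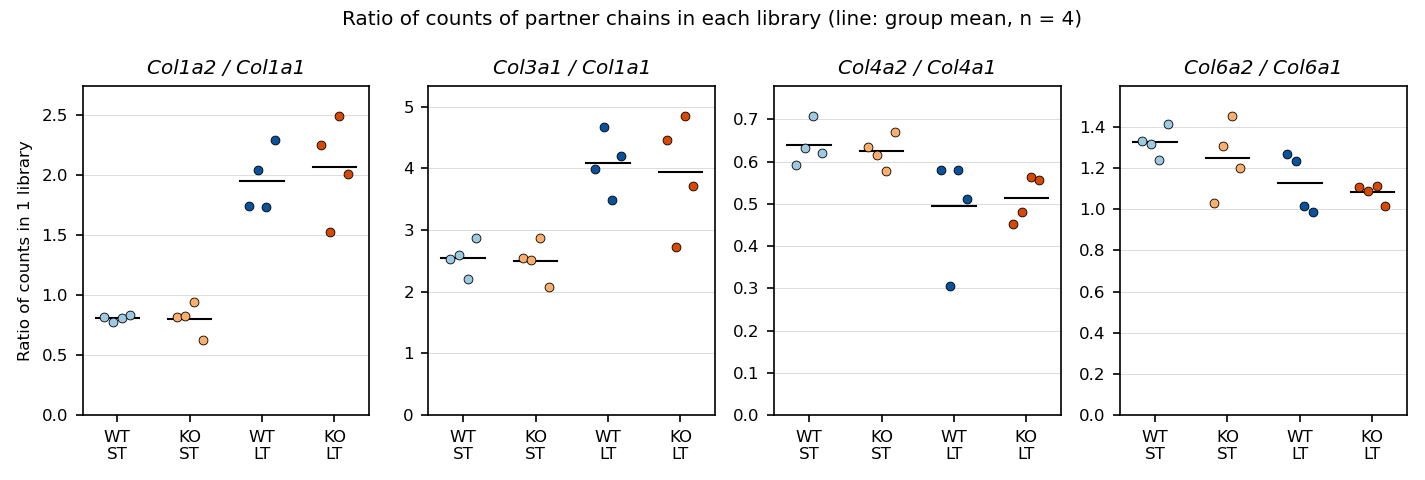
Ratio of counts of 2 chains in the same library (linear axis from 0) for each of the 16 libraries, with a line at the group mean (n = 4), KO for IRF5-KO, ST for ST-HFD and LT for LT-HFD. Col1a2 over Col1a1 is 0.627 to 0.941 in the 8 ST-HFD libraries and 1.53 to 2.49 in the 8 LT-HFD libraries, whereas Col6a2 over Col6a1 overlaps between durations.

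Fibroblast and preadipocyte markers were mostly higher on LT-HFD, whereas few endothelial, mural, adipocyte or mesothelial markers passed the test. Of 14 fibroblast and preadipocyte markers, 12 were higher on LT-HFD in WT and 11 in IRF5-KO, none were lower, and their median log2 fold changes were 2.78 and 2.74. Without WT LT-HFD replicate 4 the WT count was also 12, with a median of 2.11. Pdgfra, a receptor tyrosine kinase of adipocyte progenitors, rose by 3.45 ± 0.43 in WT and 3.22 ± 0.42 in IRF5-KO. Dcn, the fibril-binding proteoglycan decorin, rose by 3.66 ± 0.49 and 3.26 ± 0.48. Without that library the WT values were 2.75 for Pdgfra and 2.93 for Dcn. Gsn, which is expressed in many cell types, gave the largest part of their sum, and Loxl1 is also counted below among the genes that process collagen. No marker of this list was at 0 in any library, and the list's summed level did not overlap between durations. Their part in the collagen result was not tested. In sorted bulk RNA, a change in the number of cells of a type and a change in RNA per cell cannot be told apart. None of the 6 endothelial markers tested passed in either genotype, and their sums overlapped, at 22.1 to 120.8 CPM (ST-HFD) and 22.0 to 92.1 CPM (LT-HFD). Among mural markers Myh11 fell in both genotypes and none passed as higher. Of the 6 mural markers tested, 5 had log2 fold changes above 0 in WT (median 0.76) and 4 in IRF5-KO (median 0.39). No adipocyte marker rose, and Cidec of the lipid droplet fell by 1.05 in IRF5-KO (adjusted p = 0.0484). Only 2 of 10 mesothelial markers were tested, of which Wt1 rose and Upk3b gave -0.33 in WT. The mesothelial sums stayed at 5.16 to 33.4 CPM. Of 10 macrophage markers, 3 fell in WT, and in IRF5-KO 5 fell and 2 rose, with Csf1r lower in both and Adgre1, the F4/80 gene, higher in IRF5-KO by 0.46 ± 0.15 (adjusted p = 0.0235).

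**Figure D4:**
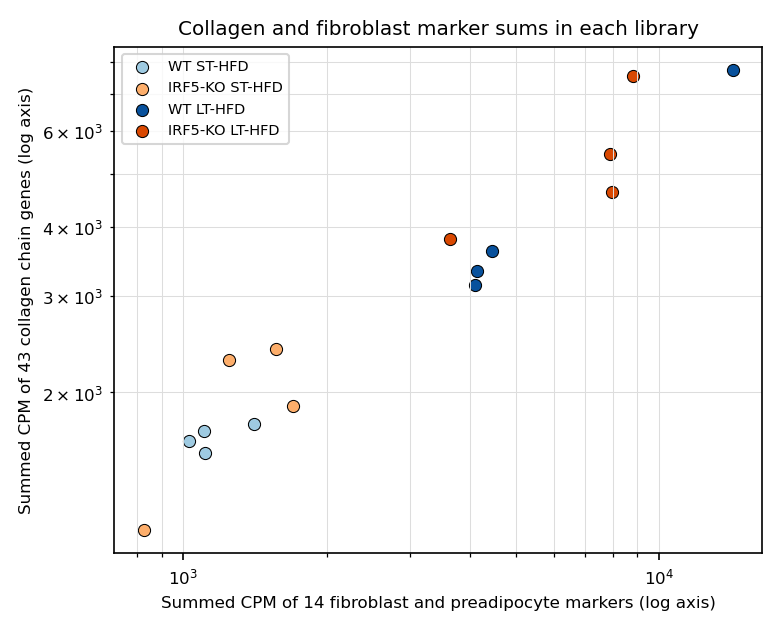
Summed CPM of the 43 collagen chain genes against summed CPM of 14 fibroblast and preadipocyte markers in each library (both axes log), coloured by group. ST-HFD libraries lie at 826 to 1701 CPM of markers and 1121 to 2405 CPM of collagen chains, LT-HFD libraries at 3630.0 to 14269 and 3137 to 7748 CPM, and WT LT-HFD replicate 4 has the highest value on both axes.

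Most tested genes that fold, modify and process procollagen were higher on LT-HFD, and a few were lower. Of 26 tested, 18 were higher on LT-HFD in WT and 2 lower, and in IRF5-KO 20 were higher and 1 lower, against 12.1% and 13.2% of all tested genes in WT and 15.6% and 17.2% in IRF5-KO. Without WT LT-HFD replicate 4, 13 of 27 were higher in WT and none lower. Serpinh1, the collagen chaperone HSP47, rose by 2.79 ± 0.41 in WT and 2.78 ± 0.40 in IRF5-KO. Fkbp10, a prolyl isomerase of the endoplasmic reticulum that acts on procollagen, rose by 2.99 ± 0.48 and 3.15 ± 0.48. Sparc, a collagen-binding glycoprotein, rose by 2.19 ± 0.31 and 2.14 ± 0.31. The prolyl hydroxylase P3h2 fell by 0.998 and 1.82, and the lysyl hydroxylase Plod3 fell by 0.41 in WT. Of 9 tested receptors and uptake genes, 2 rose in WT, and in IRF5-KO 4 rose and 1 fell, to be read against the same shares of all tested genes. Ddr2, a kinase receptor for fibrillar collagen, rose by 2.47 ± 0.44 and 2.30 ± 0.44, and Mrc2, the endocytic receptor Endo180, by 2.25 ± 0.44 and 2.93 ± 0.44. The WT values without that library were 2.13 for Serpinh1, 1.72 for Ddr2 and 1.49 for Mrc2, each with an adjusted p under 0.05. Mrc1, the mannose receptor of macrophages, fell by 0.59 in IRF5-KO.

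Genotypes were then compared within each diet duration, the comparison the study was built on. On ST-HFD none of the 22 chain genes tested had an adjusted p under 0.05, against 0.00913% of all tested genes, none had an unadjusted p under 0.05 (1.84% of all tested genes), and DESeq2 called none. The log2 fold change was above 0 for 21 of the 22, against 50.7% of all tested genes, with a median of 0.20. Levels of the chains rise and fall together from mouse to mouse, so 21 of 22 signs are not 21 separate observations. The largest interval bound among the 8 most abundant chains was 0.84, for Col4a1, whose estimate was 0.33 (95% interval -0.19 to 0.84). On ST-HFD the 5 endothelial markers tested were all above 0 as well (median 0.75), as were the 6 mural markers tested (median 0.65) and 11 of 14 fibroblast markers (median 0.22), and their part was not tested. Endothelial sums ran from 22.7 to 49.3 CPM in WT and from 22.1 to 120.8 CPM in IRF5-KO. Mural sums ran from 17.4 to 35.7 CPM in WT and from 7.62 to 68.8 CPM in IRF5-KO. None of these markers passed the test, and their values without the highest IRF5-KO library are not given here. Leaving out IRF5-KO ST-HFD replicate 4, which had the lowest collagen sum of the series, raised the median of the chains to 0.38, and leaving out replicate 1 or 2 of that group lowered it to 0.12 or 0.09.

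On LT-HFD none of the 21 chain genes tested had an adjusted p under 0.05, against 0.0182% of all tested genes, and DESeq2 called none. The log2 fold change was above 0 for 17 of 21, against 50.1% of all tested genes, with a median of 0.26. Of the endothelial markers 5 of 6 were above 0 (median 0.61), as were 3 of 5 mural markers (median 0.28) and 11 of 14 fibroblast markers (median 0.06), and their part was not tested. Endothelial sums ran from 22.0 to 51.7 CPM in WT and from 27.3 to 92.1 CPM in IRF5-KO. Marker values without the IRF5-KO library of the highest endothelial sum are not given here. Leaving out WT LT-HFD replicate 4 put 20 of 21 chains above 0 with a median of 0.65, 13 of 14 fibroblast markers with a median of 0.71, 5 of 6 endothelial markers with a median of 0.64 and 3 of 5 mural markers with a median of 0.55. The median of the chains was 0.41 without IRF5-KO LT-HFD replicate 2, 0.15 without WT LT-HFD replicate 2, 0.16 without WT LT-HFD replicate 3 and 0.08 without IRF5-KO LT-HFD replicate 1. With all libraries Col18a1 was the 1 chain gene with an unadjusted p under 0.05, against 5.72% of all tested genes. When WT LT-HFD replicate 4 was dropped, 15 of 21 chains were higher in IRF5-KO at an unadjusted p under 0.05, against 4.42% of all tested genes, as were 7 of 14 fibroblast markers. None of the chains then had an adjusted p under 0.05, and the smallest was 0.164. The estimate for Col18a1 was 0.83 ± 0.35 (95% interval 0.06 to 1.59, adjusted p = 0.853), and without that library it was 1.32 (adjusted p = 0.164). All 4 of its IRF5-KO LT-HFD libraries were above 3 of the 4 WT LT-HFD libraries, and WT replicate 4 at 43.3 CPM lay inside the IRF5-KO range. Among the chain genes that were tested, none separated the genotypes without overlap at either duration, against 1.62% (ST-HFD) and 3.03% (LT-HFD) of all tested genes.

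The interaction asked whether the genotype difference changed with diet duration. None of the 23 chain genes passed at an adjusted p under 0.05, where 0 of 11560 genes did, none passed at an unadjusted p under 0.05 (3.93% of all tested genes), and DESeq2 called none. The smallest p was 0.156, for Col20a1. For Col1a2 the interaction was 0.09 (95% interval -0.88 to 1.05) and for Col3a1 0.02 (-0.87 to 0.90) on the log2 scale. Col18a1 gave 0.63 (-0.35 to 1.62) and Col6a5 0.64 (-0.63 to 1.91), so differences of over 1 on the log2 scale lie within these intervals.

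Chains that share a molecule, and Col1a1 with Col3a1 of another fibrillar type, were correlated between mice of the same group. No background of other chain pairs was computed, so whether such values are particular to chains that share a molecule was not tested. With each gene centred on its group mean, Col1a1 and Col1a2 gave Pearson r = 0.919 and Spearman rho = 0.862 over 16 libraries (exact permutation within groups, adjusted p = 0.00255 and 0.00368 over 6 pairs). Without the 2 libraries farthest from the median, WT LT-HFD replicate 4 and IRF5-KO ST-HFD replicate 2, r was 0.814 (exact permutation p = 0.0415). Within ST-HFD and within LT-HFD it stood at 0.936 and 0.909. Col4a1 and Col4a2 gave r = 0.916 and rho = 0.915 (exact permutation, adjusted p = 4.70e-04 and 5.43e-04), and 0.864 without replicate 4 of IRF5-KO ST-HFD and of WT LT-HFD (exact permutation p = 3.38e-04). Col6a1 and Col6a2 gave r = 0.933 and rho = 0.853 (exact permutation, adjusted p = 4.97e-04 and 0.00260), with 0.801 without the same 2 libraries as for type IV (exact permutation p = 0.00371). Col1a1 and Col3a1 gave r = 0.869 and rho = 0.844 (exact permutation, adjusted p = 0.00455 and 0.00470), and without the 2 libraries left out for type I r was 0.738 (exact permutation p = 0.0726), so that relation rests in part on those libraries.

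Chains were also set against a marker of a cell type known to make them. Col1a1 and Pdgfra gave r = 0.727 and rho = 0.624 (exact permutation, adjusted p = 0.0314 and 0.0406). Without WT LT-HFD replicate 4 and IRF5-KO ST-HFD replicate 2, the farthest from the median, r was 0.535 (exact permutation p = 0.214), so the relation rests on those libraries. Col4a1 and the endothelial cadherin gene Cdh5 gave r = 0.0845 and rho = 0.103 (exact permutation, adjusted p = 0.802 and 0.740), with 0.735 within ST-HFD (exact permutation p = 0.120) and -0.604 within LT-HFD (exact permutation p = 0.148). That value was negative without 2 libraries, at -0.07 (exact permutation p = 0.851).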

How the data were processed

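RNA of F4/80+ cells from 16 mice was sequenced as stranded total RNA after ribosomal depletion, and per the labels the submitters' processing notes name fastp 0.19.11 and STAR 2.7.3a. The deposited values are raw read counts per gene that the authors obtained with STAR on mm10, and they carry no normalization. The annotation release and the strand setting of the counting are not given in the sources used here. The members and lists were chosen with earlier results of these data known. Gene positions, exon lengths and GC content came from GENCODE M21 (GRCm38), which matched 32620 of 37310 row identifiers, and 153 of 155 listed symbols were found.

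The count tests were run in R 4.3.3 by edgeR 4.0.16 (filterByExpr, TMM, quasi-likelihood test, Benjamini-Hochberg over all tested genes, call at an adjusted p under 0.05). Genotypes were fitted within each duration (8 libraries), and durations and the interaction over all 16 libraries. DESeq2 1.42.0 was an alternative, besides other normalizations, filters, a replicate block, and each library left out in turn. Corrections for GC and transcript length, and the tests of ratios between chains, were added after the data had been seen. Correlations used log2(CPM + 1) centred on group means, with exact permutation within groups (331776 arrangements, two-sided). Methods were tested on simulated data. Total counts of 3279332 to 4958131 per library limit the precision of chains with few counts. Given library by library were the 8 chains with the highest level per kilobase and up to 10 chains with an unadjusted p under 0.05 in any comparison, smallest p first; for some of these only ranges are printed. Genes outside the family were named as checks of the labels, as correlation partners, or as up to 4 genes per list and direction with the smallest adjusted p under 0.05. Deviations from group means of same-numbered WT and IRF5-KO libraries correlated at 0.358, 0.477, 0.175 and 0.296 on ST-HFD, so all 4 pairs there exceeded 0.1. The printed values are from fits without pairing, and the fit with the replicate block changed no call of a chain for the genotype difference on ST-HFD. Libraries of a group were compared by chi-square over genes, and none agreed within sampling noise.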

Additional observations from a re-analysis of the deposited data

Results flagged for a closer look

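In 9 of the 56 group-by-gene sets of 4 libraries examined, 1 library lay far from the other 3, where chance flags about 1 group in 20. That rate is for separate sets, and the 56 share libraries and chains that rise and fall together. Of the 9 flags, 6 concern WT LT-HFD replicate 4, which was the highest library of its group for Col3a1 (2855 CPM), Col1a1 (680.0 CPM), Col1a2 (1562 CPM), Col6a1 (418 CPM), Col6a5 (171 CPM) and Col5a2 (150.3 CPM). The same library had the highest fibroblast and preadipocyte marker sum of the series, 14269 CPM, and the part of those markers in its collagen levels was not tested. The others were a low Col4a1 in WT ST-HFD replicate 2 (117 CPM), a high Col6a5 in WT ST-HFD replicate 3 (57.8 CPM) and a high Col18a1 in IRF5-KO ST-HFD replicate 1 (18.6 CPM).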

How the results depend on the processing

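Collagen call counts and medians kept their direction and stayed close to the reported values in all 106 recomputations with another test, normalization, filter, block or correction. With another setting the number of chains called for diet duration was 12 to 16 in WT and 13 or 14 in IRF5-KO. Leaving out single libraries gave 9 to 15 calls in WT, with medians of 0.81 to 1.42, and 13 in each case in IRF5-KO, and moved the genotype medians from 0.09 to 0.38 on ST-HFD and from 0.08 to 0.65 on LT-HFD without a call. Col18a1 in WT also lost its call with library size only (0.91, adjusted p = 0.0666) and in a fit of the 8 WT libraries (1.02, adjusted p = 0.0732). Left-out libraries gave ranges of 0.49 to 1.20 for Col18a1, 0.86 to 1.63 for Col15a1 and 1.07 to 2.07 for Col6a5 in WT.

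The direction of Col4a1 between durations reversed in WT and IRF5-KO with upper-quartile normalization (0.0291 and 0.0634), the GC correction (0.0658 and 0.0723), the transcript length correction (0.201 and 0.227) and the GC correction with the replicate block (0.0393 and 0.0183), and ranged from -0.39 to 0.12 in WT and from -0.35 to 0.16 in IRF5-KO when a library was left out. No value was past the test in these fits, and the cause was not tested. With the transcript length correction the chain medians between durations were 1.54 in WT and 1.58 in IRF5-KO.

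With the replicate block the chains called were 0 for both genotype comparisons and the interaction, 14 in WT and 14 in IRF5-KO, so pairing changed no count of calls by over 1.5 times. On LT-HFD and across durations not every pair of same-numbered libraries deviated together, so the numbers were not taken as pairs there. The correlation of Col4a1 with Cdh5 was -0.0173 under the block and ranged from -0.228 to 0.272 with a library left out. That of Col1a1 with Pdgfra ranged from 0.492 to 0.827, and lost its call without IRF5-KO ST-HFD replicate 4 (r = 0.658, exact permutation p = 0.0834 before adjustment) or WT LT-HFD replicate 4 (r = 0.492, adjusted p = 0.245, exact permutation).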

Other observations

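Across the 23 chains tested, the log2 fold change between durations was lower for chains with a higher transcript GC content, with Pearson r = -0.477 in WT and -0.442 in IRF5-KO, given as a description over chains that share libraries and base composition. Over all tested genes the relation was r = -0.05 and -0.06. With the GC correction 14 chains in WT and 13 in IRF5-KO were called, and the medians were 1.33 and 1.41.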
